A study of Mus musculus with 2 samples.

Results

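The genes described here encode 10 cytokine receptor chains, measured in granulocyte-monocyte progenitors (GMP), the marrow cells from which neutrophils and monocytes arise. They were chosen by name as chains of the receptors for granulocyte colony-stimulating factor (G-CSF), granulocyte-macrophage colony-stimulating factor (GM-CSF), IL-3, IL-5, IL-6 and interferon gamma, and all 10 were found by identifier among 43346 annotated genes. The cells were primary cells of adult male C57BL/6J mice aged 5 to 6 weeks, and the labels state no gene alteration and no treatment. There was 1 group with 2 libraries, biological replicates 1 and 2, each from 100 ng of total RNA depleted of ribosomal RNA. Both carry the same donor record, whether animals were pooled is not stated, and the spread between the libraries may be partly technical. Without a second group there was nothing to test: levels, ratios between partner chains, transcripts and library differences are given with no p-value.

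Annotated genes held 49473827 counts in replicate 1 and 44260879 in replicate 2. All 8 marker genes of GMP were at 1 TPM or more in both libraries and summed to 4901 and 4573 TPM in replicates 1 and 2. Of 6 marker genes of monocytes and macrophages, 4 were at 1 TPM or more in both and 2 below 1 TPM in both. These 6 genes summed to 415 and 646 TPM, led by Ly6c2 at 380 and 600 TPM. The part of such cells in the levels of the receptor chains was not tested. Cd79a, Pax5 and Ms4a1 of B cells and Cd3e and Cd3g of T cells had 0 counts in both. TPM, the unit of level used here, is corrected for effective transcript length, so genes can be set side by side. Of all TPM, nuclear protein-coding genes made up 19.1% and 22.8% in replicates 1 and 2, so at an equal share of protein-coding RNA a deposited level is higher in replicate 2. Rescaled TPM, used where named, sets the total of these genes to the same value in both libraries. In bulk RNA, fewer cells of a type and less RNA per cell cannot be told apart.

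Most of these receptors join a chain that binds the cytokine to a chain that passes the signal to Janus kinases and STAT factors. The GM-CSF, IL-3 and IL-5 receptors each have an alpha chain of their own, encoded by Csf2ra, Il3ra and Il5ra, and share the common beta chain encoded by Csf2rb. Mice have a further beta chain gene, Csf2rb2, whose product serves the IL-3 receptor alone. Il6ra encodes the chain that binds IL-6, and Il6st encodes gp130, the signalling chain shared by IL-6 and related cytokines. The G-CSF receptor, encoded by Csf3r, pairs with a copy of itself and is a main growth receptor of the neutrophil lineage. Ifngr1 and Ifngr2 encode the ligand-binding and the signalling chain of the interferon gamma receptor, which belongs to a separate family, class II.

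Coding sequences of Csf2rb and Csf2rb2 are shown first, because the levels of these neighbouring genes rest on telling their reads apart. The sequences are those of GENCODE M21 transcripts, with positions on mm10. Csf2rb lies on chromosome 15 at 78325752 to 78353847 on the plus strand, and Csf2rb2 at 78282507 to 78305721 on the minus strand, 20030 bases away. Their coding sequences of 2688 and 2634 bases had the same base at 95.2% of aligned positions, with 125 differing bases and 66 gap positions. Among 60-base windows without gaps and within a single exon, the most different one, in exon 4, differed at 13 bases, shown in capitals. It lies at chr15:78338893-78338952 (plus strand) in Csf2rb and at chr15:78294379-78294438 (minus strand) in Csf2rb2.
Csf2rb: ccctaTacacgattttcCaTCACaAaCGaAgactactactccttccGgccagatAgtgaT
Csf2rb2: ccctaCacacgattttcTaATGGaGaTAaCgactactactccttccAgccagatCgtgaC
Just upstream in the same exon, and sharing 1 base with it, a window of 60 bases was identical in both genes, at chr15:78338834-78338893 in Csf2rb and chr15:78294438-78294497 in Csf2rb2. A read that lies wholly within such a window fits both genes equally.
Csf2rb: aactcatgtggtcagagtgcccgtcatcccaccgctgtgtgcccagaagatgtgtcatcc
Csf2rb2: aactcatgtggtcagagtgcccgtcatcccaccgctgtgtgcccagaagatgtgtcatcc
Over the whole transcripts, 19.0% of the 50-base stretches and 7.20% of the 100-base stretches of Csf2rb2 occurred unchanged in Csf2rb. The remaining stretches held at least 1 base that tells the copies apart.

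**Figure D1:**
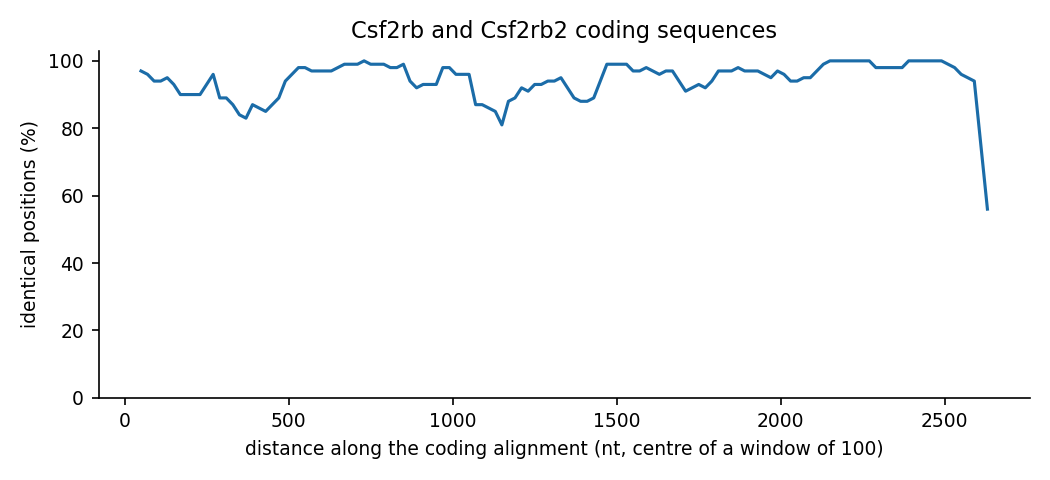
Identical positions (%) in windows of 100 along the alignment of the Csf2rb and Csf2rb2 coding sequences, gaps counted as different, against distance along the alignment in nt. Identity was 100% in some windows, dipped to 83% near position 370, 81% near 1150 and 88% near 1390, and was 56% in the last window.

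A further sequence feature is the box called WSXWS, a short motif in the outer part of class I cytokine receptors, the family of all chains here except those for interferon gamma. It was searched in frame, on the coding strand, as codons for tryptophan, serine, any residue, tryptophan and serine. An exact match occurred once in each of 5 chains, and is shown in capitals with 9 bases on each side. The positions are chr4:126034521-126034553 (plus strand) for Csf3r, chr15:78345507-78345539 (plus) for Csf2rb, chr15:78287907-78287939 (minus) for Csf2rb2, chr3:89885921-89885953 (minus) for Il6ra and chr13:112490588-112490620 (plus) for Il6st.
Csf3r: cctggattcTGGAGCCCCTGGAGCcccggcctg
Csf2rb: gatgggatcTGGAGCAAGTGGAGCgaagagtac
Csf2rb2: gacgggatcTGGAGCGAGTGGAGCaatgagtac
Il6ra: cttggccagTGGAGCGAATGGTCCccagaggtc
Il6st: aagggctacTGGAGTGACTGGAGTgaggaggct
The exact box was thus present in the signalling chains Csf3r, Csf2rb, Csf2rb2 and Il6st and in the IL-6 binding chain. No exact match was found in Csf2ra, Il3ra, Il5ra, Ifngr1 or Ifngr2, which says only that these letters are not in those reading frames. Of 21552 protein-coding genes, 71 or 0.329% held an exact match in their longest coding sequence.

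Of the 10 chains, 8 were at 1 TPM or more in both libraries, against 40.8% of 21461 nuclear protein-coding genes. On rescaled TPM the count was also 8, against 47.8% of those genes. The median was 5.24 TPM over the 10 chains and 0.200 TPM over all nuclear protein-coding genes. Among genes at 1 TPM or more in both libraries the medians were 6.46 TPM for the 8 chains and 7.16 TPM for all, so the detected chains lay near the middle of detected genes. Ifngr1 alone held 59.6% and 60.9% of the summed TPM of the 10 chains in replicates 1 and 2, while Csf2rb2 and Il5ra were below 1 TPM in both.

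**Figure D2:**
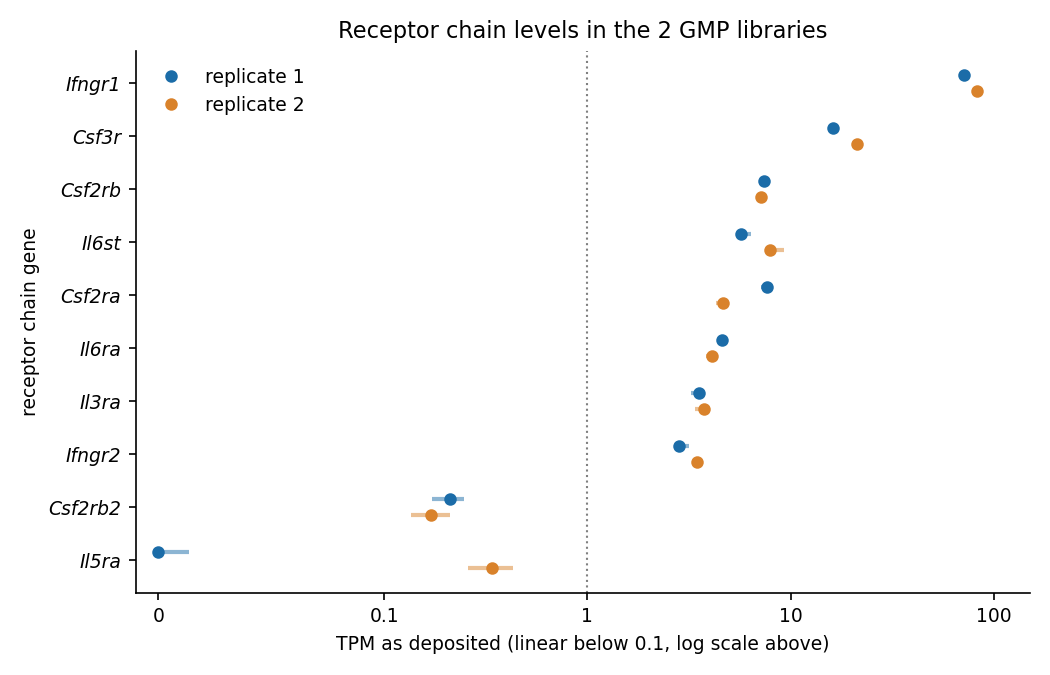
Deposited TPM of the 10 receptor chain genes in replicate 1 (blue) and replicate 2 (orange), on an axis that is linear below 0.1 and logarithmic above, with bars for the deposited credibility intervals and a dotted line at 1 TPM. Ifngr1 lies highest at 70.9 and 82.2 TPM, and only Csf2rb2 and Il5ra lie below 1 TPM.

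The G-CSF receptor gene Csf3r was second to Ifngr1 among the 10. It had 6173 and 5768 counts and 16.2 and 21.3 TPM in replicates 1 and 2, a mean of 18.7 TPM ± 3.61 (SD, n = 2), at rank 1846 of the nuclear protein-coding genes. Deposited TPM was higher in replicate 2, with credibility intervals of 15.4 to 16.7 and 20.1 to 22.1 that did not overlap. On rescaled TPM the values were nearer to each other, at 84.8 and 93.1. The gene lies on the plus strand of chromosome 4 at 126024550 to 126044440. Of 5 marker genes of mature neutrophils, which also carry this receptor, 4 were at 1 TPM or more in both libraries and none was at 0 in both. Their sum was 14.9 and 20.1 TPM in replicates 1 and 2, and their part in the level of Csf3r was not tested.

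The common beta chain gene Csf2rb was far above its copy in both libraries. It was at 7.42 and 7.14 TPM in replicates 1 and 2 (mean 7.28 ± 0.198 SD, n = 2), from 4904.02 and 3628.95 expected counts. On rescaled TPM it was higher in replicate 1, at 38.9 and 31.3. Csf2rb2, the IL-3-specific copy, had 133.98 and 85.05 expected counts and was at 0.210 and 0.170 TPM. Csf2rb was 35.3 and 42.0 times as abundant as Csf2rb2, a mean log2 ratio of 5.19 ± 0.17. The credibility intervals of Csf2rb2 overlapped each other, at 0.173 to 0.246 TPM in replicate 1 and 0.136 to 0.211 TPM in replicate 2. Summed over both genes the counts were whole, 5038 and 3714, while each gene alone had a fraction, so some reads were divided between them. Csf2rb2 received 2.66% and 2.29% of those sums. The deposited posterior SD of its count was 3.67 and 1.98 counts, small beside the count. The other 8 chains had whole counts, within 0.005.

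Of the alpha chains that join the common beta chain, Csf2ra and Il3ra were detected and Il5ra was near 0. Csf2ra, which binds GM-CSF, was higher in replicate 1, at 7.61 and 4.64 TPM in replicates 1 and 2 (mean 6.13 ± 2.10 SD, n = 2). Its rescaled values lay further apart, at 39.9 and 20.3. The gene lies on the minus strand of chromosome 19 at 61223957 to 61228429. Csf2rb and Csf2ra had no stable order, with a ratio of 0.975 in replicate 1 and 1.54 in replicate 2.

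Il3ra, which binds IL-3, was at 3.54 and 3.73 TPM in replicates 1 and 2 (mean 3.64 ± 0.134 SD, n = 2), from 621 and 492 counts. Csf2rb exceeded it by 2.10 and 1.91 times, a mean log2 ratio of 1.00 ± 0.092. Il3ra lies on the plus strand of chromosome 14 at 14346275 to 14356011. In GENCODE M21 an antisense gene, Gm48860, overlaps its start. Gm48860 was not analysed here, and no source used here says whether counting used strand. Marker genes of basophils and mast cells, which carry the IL-3 receptor, summed to 37.1 and 53.8 TPM in replicates 1 and 2, with 4 of 5 at 1 TPM or more in both, and their part in the level of Il3ra was not tested.

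Il5ra, which binds IL-5 and is known from eosinophils and B-1 cells, had 0 counts in replicate 1 and 57 in replicate 2. Its TPM was 0 in replicate 1, with a credibility bound up to 0.0135, and 0.340 in replicate 2, with an interval of 0.258 to 0.433. The libraries did not overlap for this gene. Taking 3 counts as the limit that a count of 0 leaves (counting error only), Il5ra was 20.6-fold above that limit in replicate 2 in scaled counts. The 57 counts of replicate 2 were taken as exact, so their own counting error is not in this value. The 5 eosinophil marker genes summed to 24.5 and 24.7 TPM in replicates 1 and 2, with 2 of 5 at 1 TPM or more in both and none at 0. Among them Prg2, the major basic protein gene, was at 19.1 and 17.3 TPM, and Siglecf was at 3.86 and 5.13 TPM. Epx was at 0.86 and 1.11 TPM, and Ear1 at 0.63 and 0.98 TPM. Ccr3, the eotaxin receptor gene, was at 0.0700 and 0.170 TPM. The part of these 5 genes' cells in the level of Il5ra was not tested.

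Both chains of the IL-6 receptor were detected, with gp130 above the binding chain. Il6st was at 5.71 and 7.87 TPM in replicates 1 and 2 (mean 6.79 ± 1.53 SD, n = 2), from 5329 and 5152 counts. Il6ra was at 4.60 and 4.10 TPM (mean 4.35 ± 0.354 SD), from 2099 and 1435 counts. Il6st exceeded Il6ra in both libraries, by 1.24 and 1.92 times, though the mean log2 ratio of 0.63 ± 0.44 had a wide spread. The effective length of Il6st, given below with its transcripts, was lower in replicate 2, and its part in this spread was not tested. Il6st lies on the plus strand of chromosome 13 at 112464070 to 112510086, and Il6ra on the minus strand of chromosome 3 at 89864059 to 89913196. An antisense gene of GENCODE M21, Gm42809, overlaps the start of Il6ra and was not analysed here.

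The interferon gamma receptor chains stood far apart, with the binding chain the higher. Ifngr1 was at 70.9 and 82.2 TPM in replicates 1 and 2 (mean 76.6 ± 8.00 SD, n = 2), from 18181 and 16803 counts. On rescaled TPM the order of the libraries was the other way, at 372 and 360. Ifngr2, the signalling chain, was at 2.81 and 3.48 TPM (mean 3.15 ± 0.474 SD), from 1247 and 1181 counts. Ifngr1 exceeded Ifngr2 by 25.2 and 23.6 times, a mean log2 ratio of 4.61 ± 0.066, the smallest SD among the 7 partner ratios computed. Ifngr1 was at rank 397 and Ifngr2 at rank 6856 of the nuclear protein-coding genes. Ifngr1 lies on the plus strand of chromosome 10 at 19591949 to 19610229, and Ifngr2 on the plus strand of chromosome 16 at 91547072 to 91565623.

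By mean TPM the order was Ifngr1, Csf3r, Csf2rb, Il6st, Csf2ra, Il6ra, Il3ra, Ifngr2, Csf2rb2 and Il5ra. The ranges of Csf2rb and Il6st overlapped, as did those of Il6st and Csf2ra, and of Csf2rb2 and Il5ra, and the order within each of these pairs changed between the libraries. The other neighbours were separate in deposited TPM, with narrow gaps between Csf2ra at its lowest, 4.64 TPM, and Il6ra at its highest, 4.60 TPM, and between Il3ra at its lowest, 3.54 TPM, and Ifngr2 at its highest, 3.48 TPM. On rescaled TPM the range of Il6ra, 18.0 to 24.1, also overlapped those of Csf2ra, 20.3 to 39.9, and Il3ra, 16.3 to 18.6.

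The libraries were then compared in counts per library total (CPM), scaled by trimmed means, for genes that averaged 10 CPM or more. Of the 10 chains, 8 reached that level. None of them had a log2 ratio of replicate 1 over replicate 2 above 1, where 0.269% of 8191 protein-coding genes lay, or below -1, where 0.195% lay. Their median absolute ratio was 0.143, against 0.181 for all those genes. Ifngr1, Csf3r, Ifngr2 and Il6st had ratios of -0.0031, -0.019, -0.038 and -0.068, close to 0. Il3ra, Csf2rb, Il6ra and Csf2ra were higher in replicate 1, with ratios of 0.22, 0.32, 0.43 and 0.99. The median over the 8 was 0.11, and it was -0.024 with a trend on GC content removed.

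**Figure D3:**
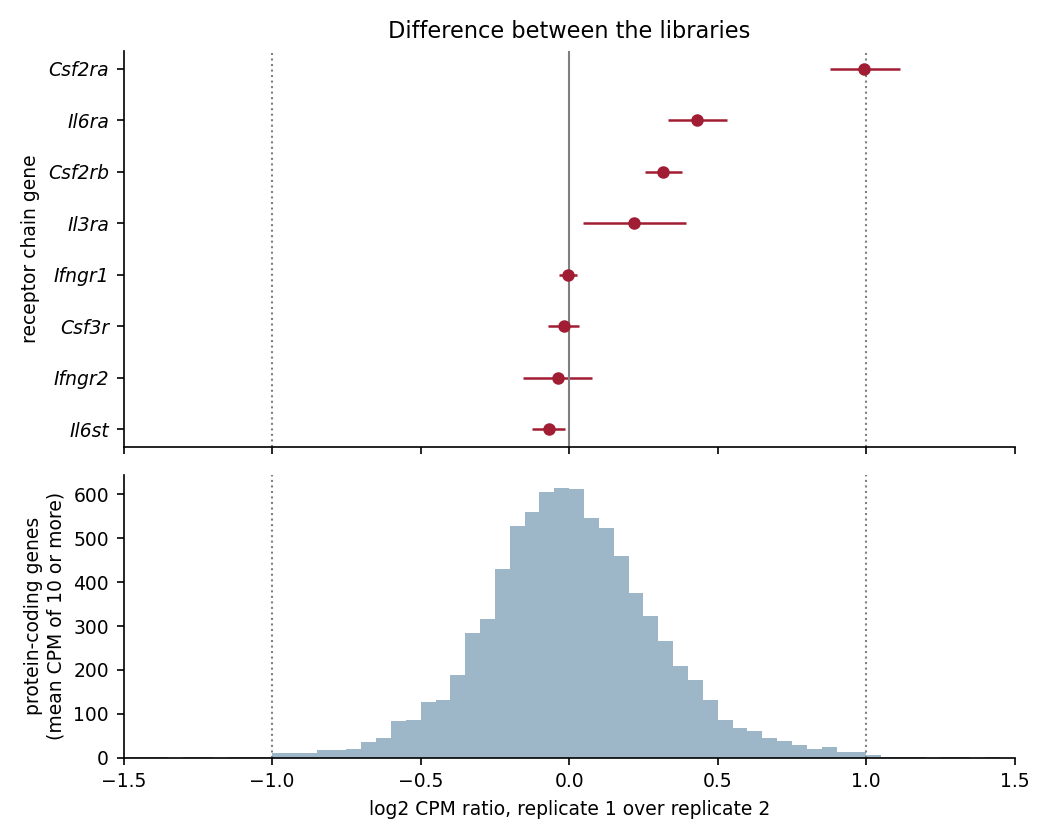
Above, the log2 CPM ratio of replicate 1 over replicate 2 for the 8 chains with a mean of at least 10 CPM, with bars for the 95% counting interval; below, the number of protein-coding genes by the same ratio, with dotted lines at -1 and 1 and an axis that ends at -1.5 and 1.5 and leaves out 4 genes. Csf2ra lies at 0.99, in the right tail of all genes, and Ifngr1 at the centre.

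Csf2ra differed most of the 8, with 1833 counts in replicate 1 and 848 in replicate 2. Its ratio of 0.99 had a 95% interval of 0.88 to 1.11 (exact binomial, counting error only), and 99.5% of the 8191 genes had a smaller absolute ratio. The ratio of all genes moved with GC content, with a median of -0.16 in the lowest quintile and 0.16 in the highest. Csf2ra has a GC content of 61.5%, and the 112 genes within 1 percentage point of it had a median ratio of 0.25. With the trend removed Csf2ra was at 0.74, and Il3ra, at 65.9% GC, was at -0.17. The Il3ra value rests on few genes, since 8 lay within 1 percentage point of its GC content. The size ranges in the labels also differ, 200 to 712 in replicate 1 and 200 to 1000 in replicate 2, and their part in these ratios was not tested.

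Several transcripts were listed in the deposited data for 4 of the chains, and 1 each for the other 6. GENCODE M21 holds more for each of those 6, from 2 for Il6ra to 8 for Csf2ra and Csf2rb. Shares among them could not be given. In all 4 chains with several listed transcripts, the same transcript had the largest share of TPM in both libraries. Shares are the deposited percent of the gene's TPM.

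Csf3r came mainly from the coding transcript ENSMUST00000030673, with 67.7% and 62.4% in replicates 1 and 2 (mean 65.0% ± 3.73 SD, n = 2). ENSMUST00000106162, with 15.3% and 13.1%, has the identical coding sequence and a longer 5′ untranslated region, of 365 bases against 45. ENSMUST00000140426, a noncoding transcript of 921 bases, held 17.1% and 18.7%. All its bases lie within exons of the leading transcript, and its share of expected counts was 4.79% and 5.45%. A further noncoding transcript, ENSMUST00000153968, had 0 and 67.05 expected counts.

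Il6st had the transcript mixture that differed most between the libraries. ENSMUST00000070731 held 49.8% and 68.3% in replicates 1 and 2 (mean 59.0% ± 13.1 SD, n = 2), and ENSMUST00000183663 held 44.95% and 27.5% (mean 36.2% ± 12.3 SD). Both encode the same 2751 coding bases and differ in their untranslated ends, with a 3′ region of 2418 bases in ENSMUST00000070731 and 5644 in ENSMUST00000183663. By expected counts the order changed. ENSMUST00000070731 had 2060 counts against 3145 for ENSMUST00000183663 in replicate 1, and 3001 against 2048 in replicate 2. The effective length of the gene, by which its TPM is divided, was 6473 and 5856 bases in replicates 1 and 2. Of the 10 listed transcripts of Il6st, 3 had counts.

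**Figure D4:**
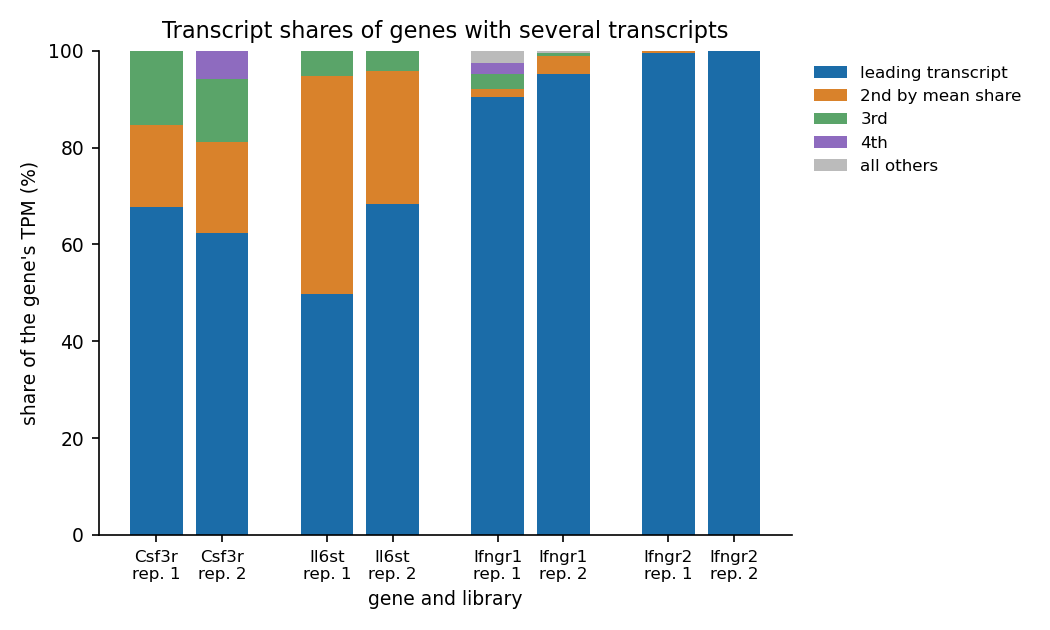
Share of each gene's deposited TPM (%) held by its transcripts in replicate 1 and replicate 2, stacked in order of mean share. The 4 chains with several listed transcripts are shown. The leading share of Il6st is 49.8% in replicate 1 and 68.3% in replicate 2, while that of Ifngr2 is 99.6% or more in both.

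Both interferon gamma receptor genes came almost wholly from 1 coding transcript. ENSMUST00000020188 held 90.4% and 95.2% of Ifngr1 in replicates 1 and 2, and 98.4% and 98.8% of its expected counts. ENSMUST00000023687 held 99.6% and 100.0% of Ifngr2 in replicates 1 and 2, and 94.75% and 98.1% by posterior mean TPM.

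The ligand genes of these receptors were at or near 0. Csf3, Csf2, Il3, Il5 and Ifng, 5 of 6, had 0 counts in both libraries, and Il6 had 57 and 5 counts in replicates 1 and 2. All 4 Janus kinase genes and the 4 listed STAT genes were at 1 TPM or more in both, against 40.8% of nuclear protein-coding genes. Jak1, a kinase of gp130 and Ifngr1, was at 10.3 and 13.6 TPM, and Jak2, a kinase of the common beta chain and Ifngr2, at 6.42 and 9.56 TPM. Of 4 feedback genes, the phosphatase gene Ptpn6 was at 72.4 and 76.4 TPM, and Socs1, Socs3 and Cish, which such signals induce, were below 1 TPM in both.

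Set among 19 other receptor chain genes, Ifngr1 had the highest mean TPM, Csf3r was at place 5 of 29 and Csf2rb at place 9. Kit, the stem cell factor receptor gene, was at 20.4 and 23.8 TPM in replicates 1 and 2, above Csf3r within each library. On rescaled TPM Kit, at 107 and 104, was also above both values of Csf3r. Csf1r, the macrophage colony-stimulating factor receptor gene, was at 6.33 and 8.81 TPM, a range that holds both values of Csf2rb. Il11ra1, whose product binds IL-11 and also signals through gp130, was at 20.2 and 24.0 TPM, above Il6ra in both libraries. By expected counts, not divided by length, Il11ra1 was below Il6ra in both, at 1900.78 and 1403 against 2099 and 1435. The transcripts of Il11ra1 were not examined. The other 4 gp130 partner genes, Lifr, Il27ra, Osmr and Cntfr, were below 1 TPM in both, Osmr and Cntfr with 0 counts. Of 5 other class II chains, 4 were at 1 TPM or more in both, led by the type I interferon receptor gene Ifnar2 at 27.3 and 27.0 TPM, below Ifngr1 in both.

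**Figure D5:**
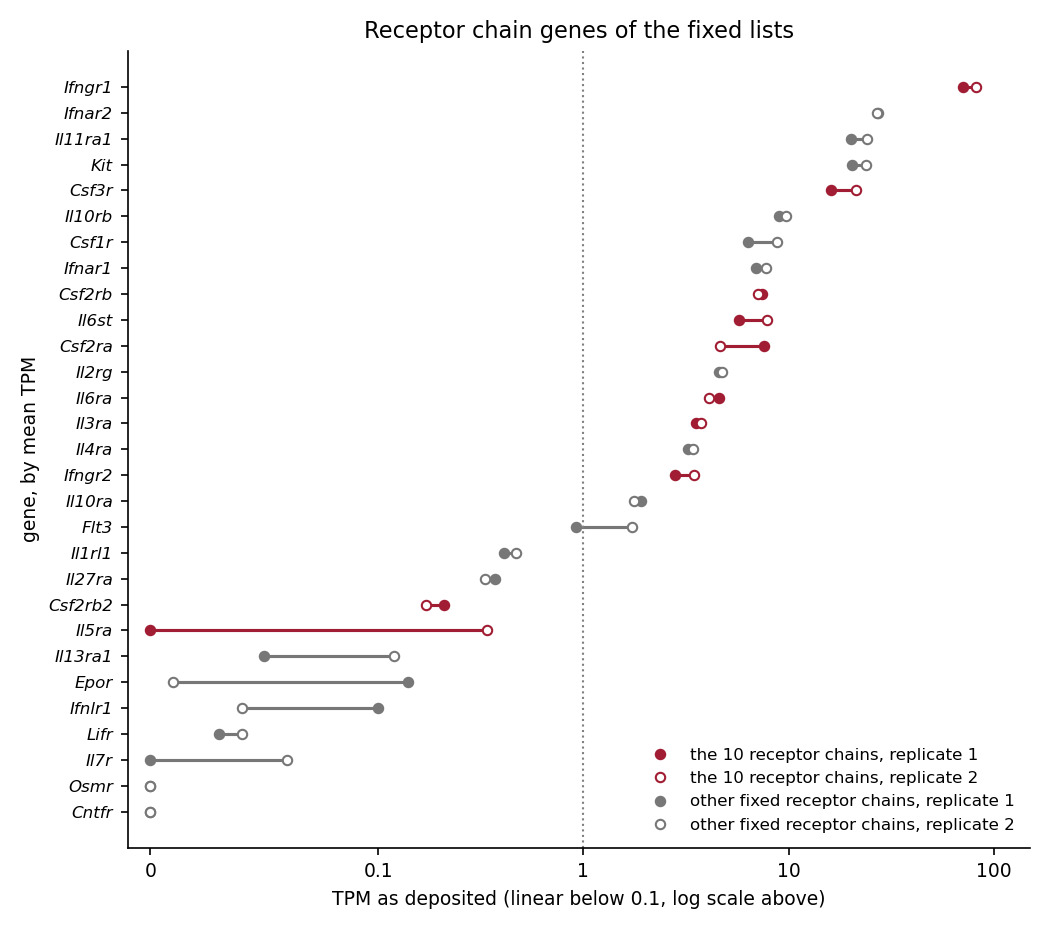
Deposited TPM of 29 receptor chain genes ordered by mean TPM, with filled points for replicate 1 and open points for replicate 2, the 10 chains described here in red and the other 19 in grey, on an axis that is linear below 0.1 and logarithmic above. Ifngr1 leads, Csf3r lies just below Kit, and Osmr and Cntfr are listed at 0.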

How the data were processed

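Per the labels, total RNA depleted of ribosomal RNA was made into libraries with a low-input ScriptSeq kit. Metadata deposited with each sample give mm10 and GENCODE M4. No source used here names the aligner, the quantifier or the strand setting. The deposited tables hold expected counts, in which shared reads are divided by an estimator, with TPM and FPKM. They also hold each deposited transcript's percent of its gene, posterior means, and deposited credibility bounds of TPM, read as a signal that is never negative. Symbols, coordinates and transcript sequences came from GENCODE M21, joined on unversioned identifiers (42462 of 43346 genes matched); of the 10 leading transcripts, 5 have a later version there (Csf2rb2, Il3ra, Il6st, Ifngr1 and Ifngr2), as do ENSMUST00000106162 and ENSMUST00000183663. For Csf2rb2, Il3ra and Ifngr2 the length differs too, so their sequences, coding lengths and GC content may not match what was quantified.

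Expected counts were rounded and scaled by TMM in edgeR 4.0.16 under R 4.3.3 (factors 0.985 and 1.02 from 12855 genes kept by filterByExpr). The log2 CPM step (prior count 2) was checked on simulated counts. Partner ratios are log2 of deposited TPM plus 0.01. Coding sequences were aligned globally with Biopython 1.88. GC content is that of a gene's leading transcript, with a lowess trend of span 0.3 (statsmodels 0.14.6). Intervals and limits cover counting error only.

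Members and lists were chosen with earlier results of these data known. The text names the 10 chains, their transcripts with a share of at least 10%, genes of the lists and genes overlapping a member; ENSMUST00000153968 was added after its values were seen. A further list member is not reported here. Alternatives were rescaled TPM, FPKM, posterior means, other thresholds, pseudocounts and scalings (DESeq2 1.42.0 size factors among them), a GC trend, and each library alone.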

Additional observations from a re-analysis of the deposited data

How the results depend on the processing

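No paired analysis was possible because the series holds 1 group. Of 7 partner ratios (log2), Csf2rb over Csf2ra, 0.29, changed direction when a single library was kept, with a range of -0.036 to 0.62. The single-library range was 4.35 to 9.54 for Csf2rb over Il5ra, set by the pseudocount because Il5ra had 0 counts in replicate 1. A pseudocount of 1 gave 0.84 for Csf2rb over Il3ra, 2.84 for Csf2rb over Il5ra (6.94 with 0.01), 2.80 for Csf2rb over Csf2rb2 (4.67 with 0.1) and 4.23 for Ifngr1 over Ifngr2. The median chain, 5.24 TPM, was at 25.6 on rescaled TPM, at 14.4 FPKM, and at 4.37 to 5.16 TPM with a single library. Chains at the threshold numbered 8 at 0.5, 1 and 2 TPM and 4 at 5 TPM. The median library ratio, 0.11, was -0.024 with the GC trend removed, and the cause was not tested. Of the 4 leading transcripts, 3 also led by expected counts in both libraries, the exception being that of Il6st in replicate 1. Depth limits Il5ra and Csf2rb2 most, with at most 57 and 133.98 counts in a library.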
